A study of Homo sapiens with 6 samples.

Results

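Interferon-stimulated genes are the genes that cells switch on in answer to interferons, and 54 of them were followed here among the 46427 genes of the expression table. They were chosen by gene symbol, by a rule that uses no measured value, although earlier results of these data were known. The study compared control cells with si-MALAT1 cells in 3 human non-small cell lung cancer (NSCLC) cell lines: H460, from a large cell carcinoma; H1299, from a lymph node metastasis; and A549, from an adenocarcinoma. MALAT1 is a long noncoding RNA of the nucleus, and si-MALAT1 is a small interfering RNA directed at it. Each line gave 1 control library and 1 si-MALAT1 library of ribosomal RNA-depleted total RNA, 6 in all. The labels give the controls as not treated, so a response to the transfection or to the siRNA itself cannot be told apart from a response to the lower MALAT1. Dose and harvest time of the RNA are not in the labels, and 1 culture stood for each line and condition, so no change within a line could be tested.

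Type I interferons bind the receptor of IFNAR1 and IFNAR2, whose kinases JAK1 and TYK2 pass the signal to a complex that holds STAT2 and IRF9 and binds the interferon-stimulated response element (ISRE) in promoters. Interferon gamma works through another promoter element, the gamma-activated site (GAS). The induced proteins sense foreign RNA, cut or trap viral RNA, block entry and budding, or feed back on the signal. Many of them are also made at a low, steady level in cancer cells without any added interferon.

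Many promoters of these genes carry letters that match the ISRE. In the RefSeq sequences (GRCh38.p14), which run from 250 bases before to 50 bases after each start site, 45 of the 54 genes had an entry, and IRF7, DHX58, OAS2, OASL, IFIT2, MX2, IFITM2, USP18 and TRIM22 did not. The ISRE letters, GAAA, any 2 bases and GAAA again, read on both strands, stood in 28 of these 45 promoters (62.2%), against 3.65% of 27305 promoters and 3.00% of the 11960 whose genes had reads in all 6 libraries. The GAS letters TTCNNNGAA stood in 12 (26.7%), against 7.88% and 6.2%. The 150 bases before the start site are printed for 5 genes with ISRE letters that later paragraphs return to. ISRE letters that lie whole within these 150 bases are in capitals. ISG15 lies at chr1:1013347-1013496 on the plus strand, IFI6 at chr1:27672193-27672342 on the minus strand, IFI27 at chr14:94110586-94110735 on the plus strand, IFIT1 at chr10:89392473-89392622 on the plus strand and BST2 at chr19:17405631-17405780 on the minus strand.
ISG15: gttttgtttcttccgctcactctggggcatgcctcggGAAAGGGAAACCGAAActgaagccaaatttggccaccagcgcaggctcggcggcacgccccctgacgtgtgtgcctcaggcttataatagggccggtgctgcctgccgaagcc
IFI6: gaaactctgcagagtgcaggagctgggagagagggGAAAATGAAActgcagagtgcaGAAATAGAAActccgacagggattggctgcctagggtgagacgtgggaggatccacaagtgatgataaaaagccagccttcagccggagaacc
IFI27: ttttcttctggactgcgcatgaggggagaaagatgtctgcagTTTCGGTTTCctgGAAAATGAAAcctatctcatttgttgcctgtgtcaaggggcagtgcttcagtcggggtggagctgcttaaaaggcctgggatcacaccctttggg
IFIT1: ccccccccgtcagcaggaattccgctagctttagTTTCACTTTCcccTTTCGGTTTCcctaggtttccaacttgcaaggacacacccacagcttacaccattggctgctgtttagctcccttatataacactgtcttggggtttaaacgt
BST2: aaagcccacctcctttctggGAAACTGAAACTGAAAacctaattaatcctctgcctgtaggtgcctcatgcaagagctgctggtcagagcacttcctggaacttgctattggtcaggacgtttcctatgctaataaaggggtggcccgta
In ISG15 and in BST2 a pair of matches overlap, so that the capitals form 1 longer run. IFI6 has a further match that starts at -156, so only its end is printed, in small letters. In IFI27 the capitals stand as a pair of matches on opposite strands, and in IFIT1 both are on the strand opposite to the gene.

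**Figure D1:**
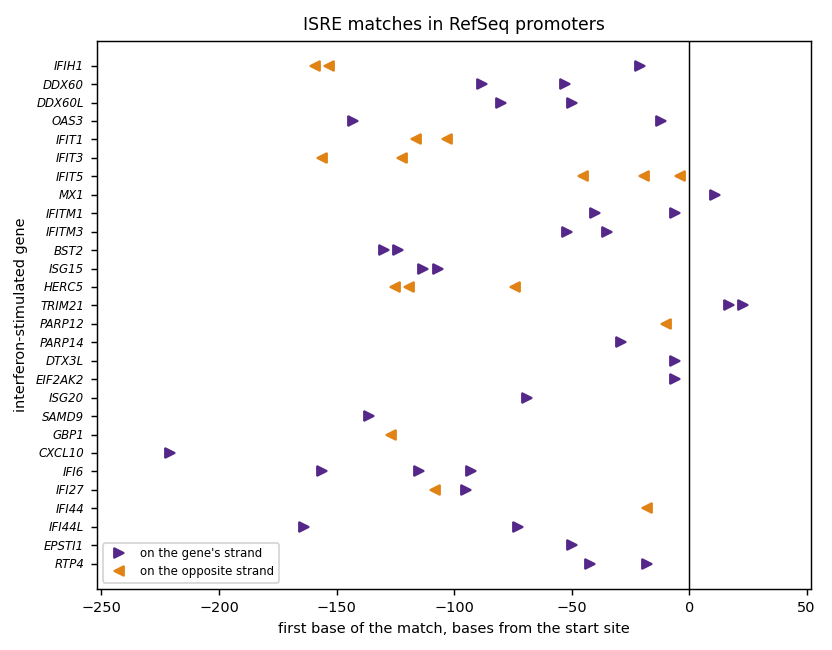
Position of ISRE matches in the RefSeq promoters of 28 interferon-stimulated genes (x axis, bases from the start site; y axis, gene; triangles to the right, match on the gene's strand; triangles to the left, on the opposite strand). Most matches lie before the start site, and MX1 and TRIM21 have theirs just after it.

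The 6 libraries held between 42506818 and 68515992 reads on genes, with both A549 libraries the shallowest. MALAT1 was read 231045 times in control H460 cells and 43858 times in their si-MALAT1 library, 407551 and 47935 times for H1299 and 93747 and 14447 times for A549 (control first, as in all pairs of reads here). All 3 si-MALAT1 libraries were thus low for the targeted RNA, by log2 fold changes of -2.32, -2.96 and -2.84. The lines matched their epithelial label in part: KRT8 and KRT18 were between 123 and 2918 TPM (a level scaled for library size and gene length) in the 6 libraries, whereas EPCAM and CDH1 stayed under 1 TPM in H460 and H1299. The 5 epithelial markers summed to 1222 TPM in control and 878.5 TPM in si-MALAT1 cells for H460, 479.9 and 457.9 TPM for H1299 and 4728 and 2078 TPM for A549, so the sum moved with the A549 results below and its part in them was not tested. In A549, KRT8 and KRT18 were lower (log2 fold changes -1.16 and -1.23) and EPCAM and CDH1 higher (1.16 and 0.51), as was KRT19 with 44 and 121 reads, and the list median was 0.51. The leukocyte markers PTPRC and CD3E had 0 reads in all 6 libraries, and the 5 markers of that list summed to between 1.18 and 10.4 TPM. The 5 stromal and endothelial markers summed to between 0.384 and 3.46 TPM.

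In the control libraries the interferon-stimulated genes were active without any added interferon. A level of at least 1 TPM was reached by 43 of the 54 genes in H460, by 41 in A549 and by 40 in H1299, and 37 genes reached it in all 3 lines. Only 8 genes stayed under 1 TPM in all 3 controls: OAS2, MX2, RSAD2, CMPK2, CXCL10, CXCL11, XAF1 and RTP4. A549 had the highest control TPM for 27 genes, H1299 for 14 and H460 for 13, whereas they were highest for 31.8%, 43.3% and 24.9% of all genes. By reads scaled for library size the counts were 24, 13 and 17, so the order of H1299 and H460 depends on the measure. The summed level of the 54 genes was 632 TPM in the H460 control, 624 TPM in H1299 and 1015 TPM in A549. After si-MALAT1 it was 622, 435 and 386 TPM, so the line with the highest sum among the controls had the lowest among the si-MALAT1 libraries. The median level went the same way, being 5.03 and 4.81 TPM for H460, 5.48 and 4.66 TPM for H1299 and 9.16 and 3.69 TPM for A549. In such bulk samples, fewer expressing cells and less RNA per cell cannot be told apart.

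**Figure D2:**
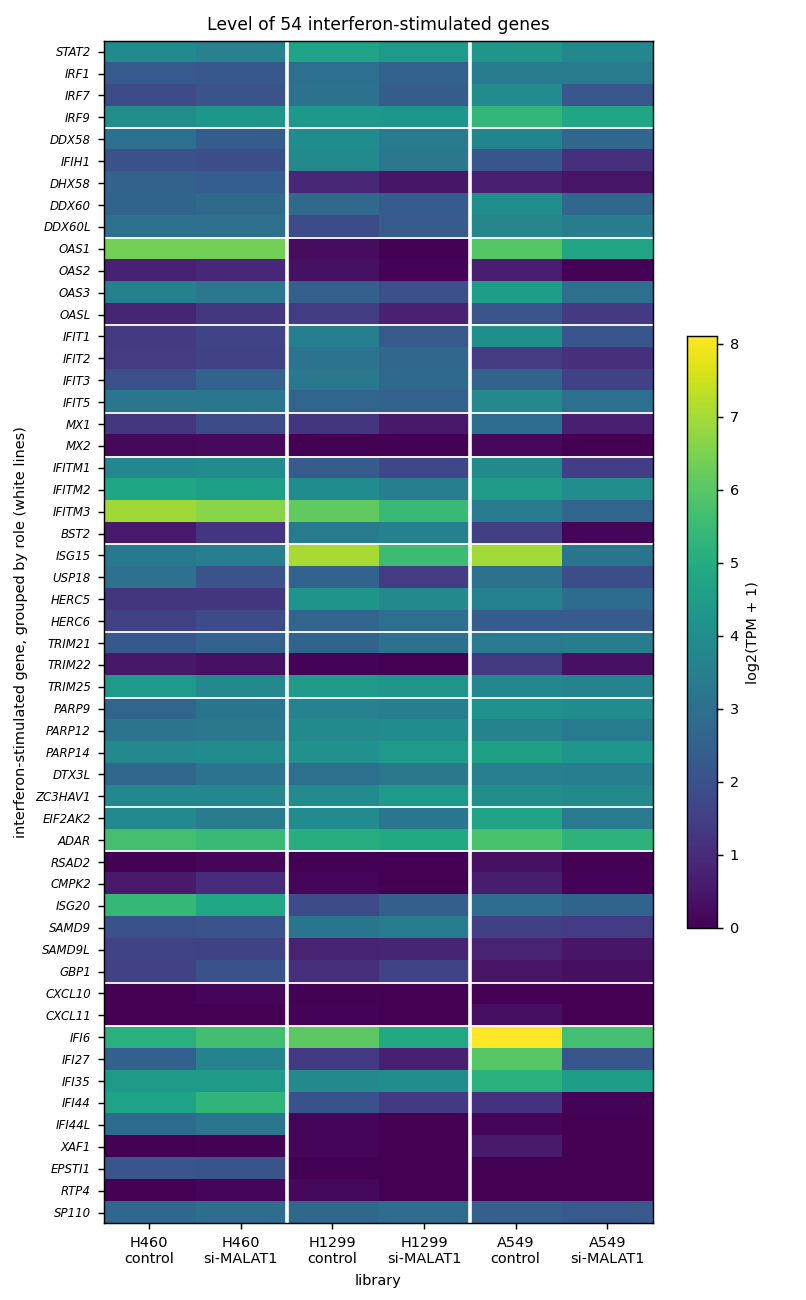
Level of the 54 interferon-stimulated genes (rows, grouped by role) in the 6 libraries (columns), as log2(TPM + 1) in color. OAS1 is bright in H460 and A549 (81.8 and 62.1 TPM in the controls) and dark in H1299, and IFITM3 is bright in H460 and H1299 (121 and 68.9 TPM).

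Each line had its own leading interferon-stimulated genes. IFI6, which encodes a small membrane protein that protects infected cells, was highest on average, with control levels of 34.5 TPM in H460, 65.9 TPM in H1299 and 273 TPM in A549. ISG15, a ubiquitin-like modifier, followed with 8.65, 130 and 124 TPM. IFITM3, which blocks the fusion of viruses in endosomes, had 121, 68.9 and 8.95 TPM, so the order of the lines was opposite to that of IFI6. OAS1, which makes the oligoadenylates that turn on RNase L, had 81.8 TPM in H460 and 62.1 TPM in A549 but 0.214 TPM in H1299. ADAR, the editor of adenosines in paired RNA, was the steadiest of these 5, at 51.2, 32.0 and 53.2 TPM. Between the highest and the lowest control, 11 of the 48 genes with a read in all 3 controls differed by at least 10-fold and 11 by less than 2-fold, among them ZC3HAV1 at 12.8, 13.9 and 15.2 TPM and SP110 at 5.60, 5.66 and 4.55 TPM.

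Both libraries of a line carry its level, so lines were compared with edgeR's quasi-likelihood test with treatment as a covariate. Benjamini-Hochberg adjustment was made over all genes. The libraries of a line differ in treatment and no culture was repeated. The p-values therefore measure the spread that the treatment term leaves, not the spread between cultures of a line. Of the 49 interferon-stimulated genes that passed the read filter, 28 (57.1%) differed between H1299 and H460, 8 of them higher in H1299, while 52.6% of all 19122 genes tested differed. Between A549 and H460, 15 (30.6%) differed, 4 of them higher in A549, against 38.2% of all genes. Between A549 and H1299, 23 (46.9%) differed, 14 of them higher in A549, against 48.9%. These shares are near those of all genes. The last count rests on single libraries: it was 12 without the H1299 control or si-MALAT1 library (39.1% and 36.2% of all genes), 13 without the A549 control (27.7%), and 35 without the H460 control or si-MALAT1 library (53.0% and 53.1%).

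H460 stood apart for a group of genes of the interferon-induced class. IFI44L, an interferon-induced protein of the IFI44 family, had 1931 and 2544 reads in H460, 30 and 7 for H1299 and 21 and 2 for A549. All H460 libraries lay above all others, with log2 differences of -7.24 for H1299 (edgeR, adjusted p = 0.000441) and -7.28 for A549 (adjusted p = 0.000815). Its neighbor IFI44, next to it in 43.667 kb of chromosome 1, had 3118 and 4671 reads in H460, 369 and 165 for H1299 and 93 and 10 for A549. IFI44 was also lower in H1299 (-4.29, edgeR, adjusted p = 0.00328) and A549 (-6.06, adjusted p = 0.00228). ISG20, an exonuclease that degrades viral RNA, showed the same order of H460 over the others, with 40.6 TPM in the H460 control against 2.70 TPM in H1299 and 6.38 TPM in A549 (edgeR, log2 differences -3.57 and -2.68, adjusted p = 0.000161 and 0.000655). HERC5, the ligase that couples ISG15 to other proteins, went the other way, with 1.36 TPM in the H460 control against 17.3 TPM in H1299 and 10.7 TPM in A549 (edgeR, log2 differences 3.12 and 2.32, adjusted p = 0.000161 and 0.000736). For OAS1, H1299 was the low line, with a log2 difference of -9.46 from H460 (edgeR, adjusted p = 0.000193) and 8.36 below A549 (adjusted p = 0.000337). For IFITM3 the low line was A549, with log2 differences of -4.29 from H460 (edgeR, adjusted p = 6.73e-05) and -2.93 from H1299 (adjusted p = 0.000157).

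The change after si-MALAT1 was taken in each line as the difference of log2(scaled reads + 1), si-MALAT1 minus control, with relative log expression (RLE) scaling, for the 44 interferon-stimulated genes that had a read in all 6 libraries, of 17834 such genes. The other 10, OAS1, MX2, TRIM22, RSAD2, CMPK2, CXCL10, CXCL11, XAF1, EPSTI1 and RTP4, had 0 reads in at least 1 library and are given one by one below. Of the 44 genes, 32 were higher and 12 lower in H460, where the median log2 fold change was 0.27. In H1299, 13 were higher and 31 lower, with a median of -0.54. In A549, 1 was higher and 43 lower, with a median of -0.77. The medians of all genes were 0.02, 0.02 and 0.01. So the median of the interferon-stimulated genes lay above that of all genes in the H460 pair and below it in the H1299 and A549 pairs.

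At least 1.5-fold higher in H460 were 10 of the 44 genes, against 9.5% of all genes, and 1 was at least 1.5-fold lower, against 10.3%. Only 3 were higher in H460 when the change was taken from log2(TPM + 1), as for all changes from TPM here. The added 1 shrinks changes of genes at low levels, such as OASL in H460 (0.788 and 1.48 TPM). The H460 median of all genes also moved, to -0.07 from TPM, and the part of each in the lower count was not tested. In H1299, 3 were higher, against 11.7% of all genes (0 from TPM), and 19 lower, against 11.4%. In A549, none of the 44 was higher by 1.5-fold, against 11.5% of all genes, and 26 were lower, against 11.4%. A log2 fold change of -1.5 or lower was seen for 13 genes in A549, 4 in H1299 and 0 in H460, where 1.68%, 1.18% and 1.46% of all genes had one. The lower sets overlapped: 19 genes (43.2%) were at least 1.5-fold lower in both H1299 and A549, against 3.73% of all genes, and 13 were when the change was taken from TPM. USP18 was the only one past 1.5-fold in the same direction in all 3 lines. The 3 lines fell in the order H460, H1299, A549 from highest to lowest change for 30 of the 44 genes, against 14.9% of all genes.

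**Figure D3:**
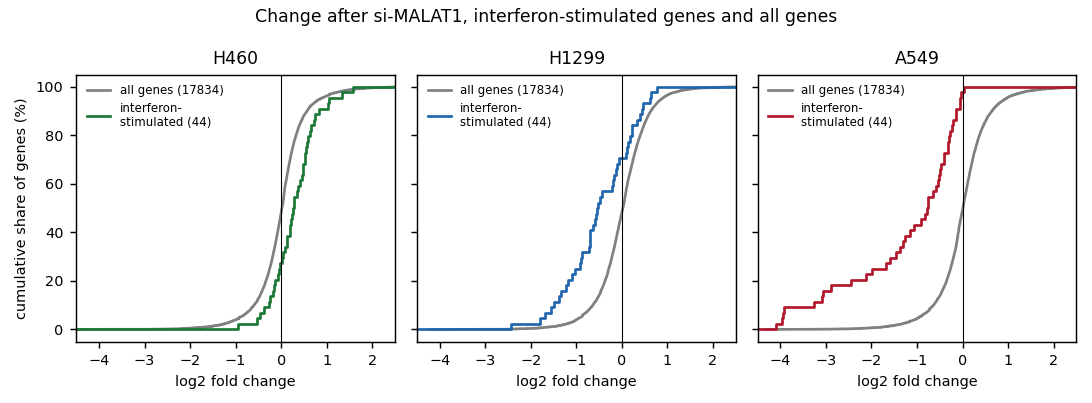
Cumulative share of genes (y axis) by log2 fold change, si-MALAT1 minus control (x axis), for the interferon-stimulated genes and for all genes in each of the 3 cell lines. The curve of the interferon-stimulated genes lies to the right of all genes in H460 (median 0.27) and to the left in H1299 (median -0.54) and A549 (median -0.77).

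The sign pattern over the lines set apart 3 sets of genes. The largest, 20 genes (45.5%, against 11.2% of all genes), was higher in H460 and lower in H1299 and A549. It held IRF7, IRF9, IFIH1, DDX60, OAS2, OASL, all 4 IFIT genes, MX1, IFITM1, ISG15, HERC5, PARP9, PARP12, IFI6, IFI27, IFI44 and IFI44L. Another 11 genes (25%, near the 18.8% of all genes) were lower in all 3 lines: STAT2, IRF1, DDX58, DHX58, OAS3, IFITM2, IFITM3, USP18, TRIM25, EIF2AK2 and ADAR. A further 11 (25%, against 8.08%) were higher in H460 and H1299 and lower in A549: DDX60L, BST2, HERC6, PARP14, DTX3L, ZC3HAV1, SAMD9, SAMD9L, GBP1, IFI35 and SP110. TRIM21 was higher in all 3 and ISG20 was higher only in H1299. In H460 the 95% interval for counting error held 0 for 6 of the 44 genes: IRF1, IFIH1, DHX58, IFITM2, HERC5 and SAMD9L. Small changes decided some signs: with changes taken from TPM, IFIH1, IFIT5, HERC5, ZC3HAV1 and SAMD9L were lower in H460, PARP12 was higher in H1299 and IRF1 higher in A549, and from the deposited FPKM, a related length-scaled level, IRF1 was higher in H460 and A549.

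**Figure D4:**
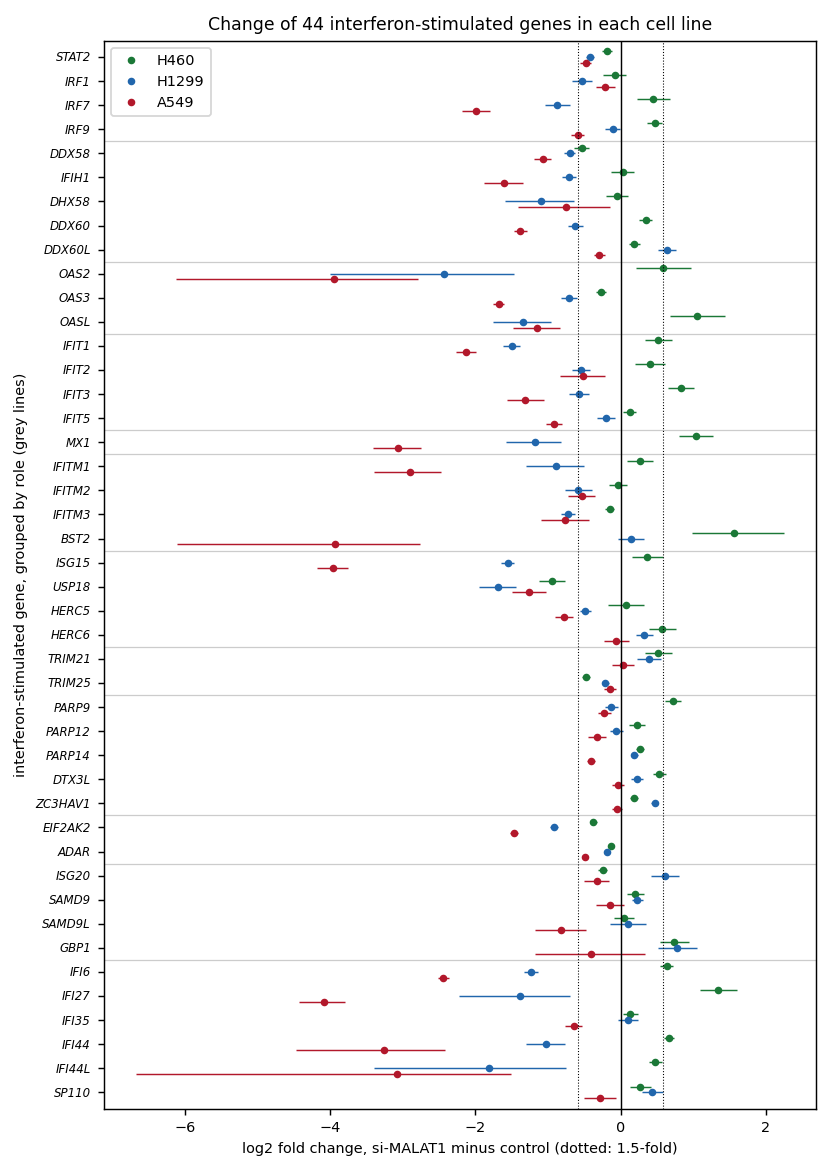
Log2 fold change, si-MALAT1 minus control (x axis), of 44 interferon-stimulated genes (y axis, grouped by role) in H460, H1299 and A549; bars are 95% Clopper-Pearson intervals for counting error and dotted lines mark 1.5-fold. A549 lies farthest to the left for 37 of the 44 genes.

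Among the transcription factors of the pathway, IRF1, which also acts downstream of interferon gamma, and the partners STAT2 and IRF9 had changes of under 1.5-fold in every line but A549, where IRF9 was 1.51-fold lower. STAT2 had 3497 and 2910 reads in H460, 6425 and 4369 for H1299 and 2773 and 2195 for A549. It was lower in all 3 si-MALAT1 libraries, with a mean log2 fold change of -0.36 ± 0.16 (SD over 3 lines). IRF7, the factor that widens the interferon response, diverged more, with 295 and 382 reads in H460, 826 and 412 for H1299 and 976 and 272 for A549. Its control level in A549 was the highest of the 3 and its si-MALAT1 level there was 3.96-fold lower, whereas H460 was 1.37-fold higher.

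The sensors of viral RNA in the cytoplasm took median log2 fold changes of -1.07 in A549, -0.70 in H1299 and 0.03 in H460. DDX58, which encodes the sensor RIG-I, had 1833 and 1194 reads in H460, 3807 and 2141 for H1299 and 1863 and 979 for A549, and was lower in each si-MALAT1 library. Of the 100-base windows of DDX58 transcripts, 40.8% also stood in another GENCODE gene without a symbol. Whether any of its reads belong to that gene was not tested. IFIH1, which encodes MDA5, had 637 and 614 reads in H460, where the counting interval of its change (-0.13 to 0.19) holds 0, but was 1.63-fold lower in H1299 and 3.03-fold lower in A549. DDX60L, a helicase-like relative of DDX60, was the exception in H1299, with 890 reads in the control and 1263 after si-MALAT1 (log2 fold change 0.64), next to 2486 and 2683 in H460 and 2654 and 2399 in A549. DDX60, its neighbor in 264.222 kb of chromosome 4, was 1.54-fold lower in the same H1299 pair.

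The oligoadenylate synthetases, which make the second messenger that activates RNase L, were split by line. OAS3 had 4159 and 3271 reads in H460, 1734 and 969 for H1299 and 5134 and 1772 for A549. It was lower in each si-MALAT1 library, and A549 had the highest control level (22.3 TPM) but a si-MALAT1 level under that of H460 (6.92 against 8.20 TPM). OASL, a relative without the synthetase activity, had 92 and 181 reads in H460, 204 and 73 for H1299 and 245 and 122 for A549. The H460 change of OASL was 1.05 and the others -1.34 and -1.15. OAS1 had 8518 and 8056 reads in H460 (log2 fold change 0.00, interval -0.04 to 0.05) and 4408 and 2067 in A549 (-1.24). In H1299 the control had 31 reads of OAS1 and the si-MALAT1 library 0, at least 9.44-fold lower with a floor of 3 reads per library. OAS2 was low everywhere, between 4 and 148 reads. OAS1, OAS3 and OAS2 lie in 104.947 kb of chromosome 12 (GRCh38, chr12:112906777-113011723), and the gene in the middle, OAS3, was the one with the same sign in all 3 lines.

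The IFIT proteins bind viral RNA that lacks host cap marks, and their 4 genes sit in 118.952 kb of chromosome 10 (GRCh38, chr10:89302046-89420997). All 4 were higher in H460 and lower in H1299 and A549, with medians of 0.46, -0.56 and -1.12. IFIT1 had 401 and 545 reads in H460, 2549 and 824 for H1299 and 2332 and 590 for A549. The control levels of IFIT1 were 1.59, 10.2 and 15.4 TPM and those after si-MALAT1 2.08, 3.79 and 3.48 TPM, so the lines lay closer together after si-MALAT1. IFIT1 was 4.37-fold lower in A549 and 2.82-fold lower in H1299, where the interval of the log2 fold change was -1.61 to -1.38. IFIT5 had the smallest changes of the family in H460 and H1299, 0.12 and -0.20.

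MX1 encodes a dynamin-like GTPase that traps viral nucleocapsids. It had 242 and 470 reads in H460, 205 and 82 for H1299 and 654 and 86 for A549. MX1 was 2.05-fold higher in the H460 pair, 2.27-fold lower in H1299 and 8.34-fold lower in A549. MX2, its neighbor on chromosome 21, was near the floor, with 21 and 31 reads in H460, 0 and 0 for H1299 and 15 and 0 for A549.

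Of the membrane restriction factors, BST2, the tether that holds budding virus at the cell surface, had the widest spread of changes over the lines. BST2 had 30 and 86 reads in H460, 541 and 546 for H1299 and 66 and 4 for A549. The change ran from -3.93 in A549 (interval -6.11 to -2.76) through 0.14 in H1299 (-0.03 to 0.32) to 1.57 in H460 (0.99 to 2.25), on few reads in A549 and H460. IFITM1, which blocks virus entry at the cell surface, had 494 and 564 reads in H460, 159 and 78 for H1299 and 322 and 47 for A549, where it was 7.46-fold lower. IFITM3 had 4305 and 3663 reads in H460, 2429 and 1348 for H1299 and 192 and 125 for A549, with changes of -0.15, -0.72 and -0.76. The IFITM genes resemble each other: 7.71% of the 100-base windows of IFITM1 transcripts also stood in IFITM3 and 4.70% of those of IFITM2 in IFITM1 (GENCODE), so reads between them are uncertain.

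ISG15 and the enzymes that attach and remove it held the only gene lower by 1.5-fold in all 3 lines. ISG15 had 321 and 392 reads in H460, 4788 and 1486 for H1299 and 2772 and 196 for A549. The A549 level was 15.6-fold lower after si-MALAT1 (log2 fold change -3.96, interval -4.18 to -3.76), and its 7.87 TPM lay below the 10.1 TPM of H460, a line whose control had the lowest level. USP18, the protease that takes ISG15 off its targets and that also dampens the interferon receptor, had 814 and 400 reads in H460, 586 and 165 for H1299 and 502 and 232 for A549. The 3 si-MALAT1 libraries all lay below the 3 controls, with log2 fold changes of -0.94, -1.69 and -1.26 and a mean of -1.30 ± 0.38 (SD over 3 lines). Of the USP18 windows, 7.52% also stood in its near copy USP41, so some reads could belong to either. HERC5 was 1.40-fold lower in H1299 and 1.71-fold lower in A549, while HERC6 stayed within 1.5-fold in all 3 lines.

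**Figure D5:**
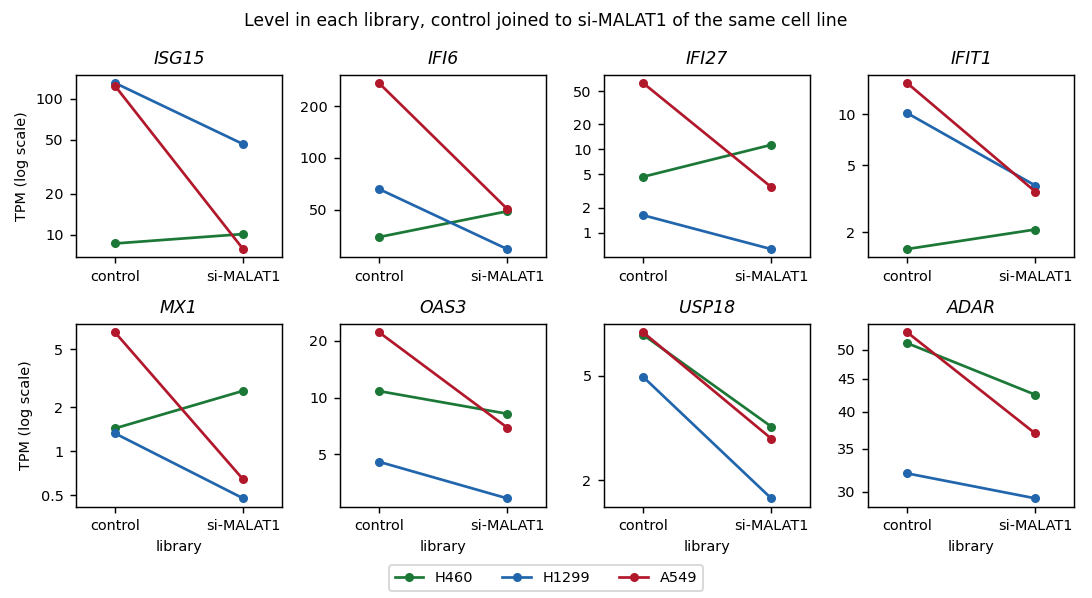
TPM (log axis, scaled separately in each panel) of 8 interferon-stimulated genes in the control and si-MALAT1 library of each cell line, joined by a line. USP18, OAS3 and ADAR slope down in all 3 lines, whereas ISG15, IFI6, IFI27, IFIT1 and MX1 slope up in H460 and down in H1299 and A549.

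Most TRIM and PARP genes stayed within 1.5-fold. TRIM25, the ubiquitin ligase that switches on RIG-I, had 6663 and 4541 reads in H460, 6435 and 5089 for H1299 and 2547 and 2543 for A549, with changes of -0.47, -0.21 and -0.15. TRIM21, the cytosolic antibody receptor, had 416 and 565 reads in H460, 578 and 694 for H1299 and 637 and 721 for A549, the only one of the 44 genes above its control in each line, although the A549 interval (-0.12 to 0.19) holds 0. TRIM22 had 75 and 49 reads in H460, 10 and 0 for H1299 and 163 and 32 for A549. None of the 5 genes of the PARP group was lower by 1.5-fold in any line. ZC3HAV1, which encodes the zinc finger protein ZAP that binds CpG-rich viral RNA, had 4336 and 4666 reads in H460, 5417 and 6851 for H1299 and 3403 and 3635 for A549. PARP9, the partner of the ligase DTX3L, was 1.65-fold higher in H460, but 44.9% of its exon bases overlap LOC105374071 on the opposite strand and the strand setting of the counting is not given in the sources used here.

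The enzymes that bind double-stranded RNA were lower in every si-MALAT1 library, by unequal amounts. EIF2AK2, which encodes the kinase PKR that halts translation, had 7590 and 5527 reads in H460, 7979 and 3872 for H1299 and 8464 and 3386 for A549. Its control levels were 13.3, 14.4 and 25.6 TPM and those after si-MALAT1 9.68, 8.15 and 9.09 TPM, so A549 stood above the other lines only among the controls, with log2 fold changes of -0.38, -0.91 and -1.47 and a mean of -0.92 ± 0.55 (SD over 3 lines). ADAR had 19331 and 16673 reads in H460, 11805 and 9498 for H1299 and 11895 and 9325 for A549, with changes of -0.13, -0.18 and -0.50. Of the ADAR exon bases, 37.2% overlap CHRNB2 on the opposite strand.

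Among other effectors, GBP1, a guanylate-binding GTPase that attacks vacuoles of intracellular microbes, was higher in H460 (343 and 542 reads) and H1299 (196 and 308 reads), by 1.67-fold and 1.72-fold, and had 35 and 29 reads in A549. ISG20 had 5091 and 4060 reads in H460, 369 and 514 for H1299 and 573 and 505 for A549, so H1299 was the one line in which it was higher. CMPK2, a mitochondrial nucleotide kinase, had 86 and 164 reads in H460 and 54 and 8 in A549, and in H1299 it had 20 reads in the control and 0 after si-MALAT1, at least 6.09-fold lower. RSAD2, its neighbor and the gene of the antiviral enzyme viperin, had 9 and 18 reads in H460, 4 and 0 for H1299 and 34 and 0 for A549, at least 12.5-fold lower there. The chemokines CXCL10 and CXCL11, which draw activated T cells, were almost silent, with at most 13 reads in any library.

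In the last group of interferon-induced genes, the median change of the 6 measured was -2.76 in A549, against -1.13 in H1299 and 0.56 in H460. IFI6 had 1645 and 2416 reads in H460, 3104 and 1210 for H1299 and 7862 and 1602 for A549. After si-MALAT1 its levels in H460 and A549 nearly met, at 48.8 and 50.4 TPM, after controls of 34.5 and 273 TPM. Of the IFI6 windows, 10.7% also stood in LINC02574. IFI27, a relative of IFI6, had 181 and 436 reads in H460, 62 and 21 for H1299 and 1382 and 89 for A549. IFI27 was 2.54-fold higher in H460, 2.61-fold lower in H1299 and 17.0-fold lower in A549, the lowest change of the 44 genes in that line. IFI44 was 1.58-fold higher in H460 and 9.56-fold lower in A549, although on 93 and 10 reads there. SP110, a nuclear body protein, had 693 and 792 reads in H460, 706 and 873 for H1299 and 355 and 323 for A549, with no change of 1.5-fold. XAF1 had 0 and 11 reads in H460, 20 and 0 for H1299 and 74 and 5 for A549, and EPSTI1 had 627 and 664 reads in H460 and at most 4 in the other lines. RTP4 had at most 11 reads in any library.

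Whether a gene was lower over all 3 lines was tested with the quasi-likelihood test of edgeR, blocked by cell line, in which p-values measure the spread between these lines. None of the 49 genes passed an adjusted p of 0.05, as against 1 of all 19122 genes (0.00523%), MALAT1 itself (adjusted p = 0.0381), although 11 of the 49 and 2863 of all genes had an unadjusted p under 0.05. The smallest adjusted p of the 49 was that of USP18, 0.0819. DESeq2's Wald test, the tool the study names, gave an adjusted p to 41 of the genes and called 5 of them (12.2%), all lower, while it called 10.8% of all genes. These were USP18 (adjusted p = 7.36e-05, DESeq2), DDX58 (0.000353), EIF2AK2 (0.00284), OAS3 (0.0368) and STAT2 (0.0393), each lower in 3 of 3 lines, and the share was near that of all genes. Without the H460 pair, edgeR called 3 of 48 genes, against 0.8% of all genes: IFIT1 (adjusted p = 0.0196), IFI6 (0.0393) and EIF2AK2 (0.0393), and 28 of the 48 had an unadjusted p under 0.05, as had 3082 of all 20386 genes. Without the H1299 pair or the A549 pair it called 0. An unadjusted p under 0.05 was then seen for 6 of 50 genes (2713 of all 19542) and 5 of 51 (1187 of all 20619), shares near those of all genes.

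Set beside the promoter letters, 25 measured genes with ISRE letters had median log2 fold changes of -1.38 in A549, -0.62 in H1299 and 0.34 in H460. The 12 measured genes with a promoter but without the letters had -0.38, -0.12 and 0.09. At least 1.5-fold lower were 13 of the 25 in H1299 and 17 in A549, against 1 and 4 of the 12. The filter on zeros had dropped OAS1, CMPK2, RSAD2, XAF1 and CXCL11 from the genes without the letters, all lower in H1299 and A549. From those with the letters it dropped CXCL10, EPSTI1 and RTP4, with at most 11 reads in H1299 and 2 in A549. The gap between the sets thus depends in part on this filter. Both sets thus had the same order of the lines. The difference between the sets was not tested, and the 5 genes whose promoters are printed above are all among the 25, BST2 with its change of 0.14 in H1299 included.

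The genes that make, receive and carry the interferon signal were also counted. Of 22 interferon genes, IFNE, an epithelial type I interferon, was the only one with reads, between 38 and 236 per library, and its changes were -0.28, 0.58 and 0.25. The other 21 had 0 reads in all 6 libraries. Of 14 receptor and JAK-STAT genes, edgeR called 0, and DESeq2 called PIAS1, an inhibitor of this signal, higher (adjusted p = 0.0205). The medians of this list were 0.06, 0.20 and 0.02, so they were not negative in any line, unlike those of the induced genes in H1299 and A549. The list mixes receptors and kinases with inhibitors such as PIAS1, and STAT2 and IRF9 are counted among the 54 genes instead. In A549, 7 of its genes were higher and 7 lower, so its median does not show how the signal chain changed. Of the 20 sensing adaptors and kinases, edgeR called 0 of 18 tested. DESeq2 gave an adjusted p to 15 of them and called 1 lower and 1 higher, a share near the 10.8% of all genes. The lower one was IRF3, the factor that switches on interferon genes (DESeq2, adjusted p = 0.0448). The higher one was TLR3, the endosomal receptor for paired RNA (DESeq2, adjusted p = 0.000313). TLR3 had 556 and 948 reads in H460, 171 and 295 for H1299 and 141 and 349 for A549, higher in every si-MALAT1 library.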

How the data were processed

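The authors sequenced ribosomal RNA-depleted total RNA of 6 libraries, trimmed reads with Trimmomatic, aligned them to hg38 with HISAT2 2.1.0 and estimated abundance with StringTie, as the methods and the submitters' processing notes state (bcl2fastq 2.20.0, StringTie 1.3.4b in the notes). The notes also list hg19, but the deposited gene coordinates are those of GRCh38. The deposited table holds read counts per gene, which were used as raw counts, and FPKM and TPM made by the authors, which were used for levels and as alternatives. A further 18 columns of other samples were not used. Genes with at least 1 read in all 6 libraries were scaled by RLE, and log2 fold changes used a pseudocount of 1. Clopper-Pearson intervals (95%) and the floor of 3 reads cover counting error only. Libraries held 42506818 to 68515992 reads.

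Changes over lines and differences between lines were tested with edgeR 4.0.16 (quasi-likelihood, TMM, filterByExpr, Benjamini-Hochberg) in R 4.3.3, with DESeq2 1.42.0 as an alternative, leaving 2 residual degrees of freedom. The control and si-MALAT1 library of 1 cell line were paired because the labels name the same line, and the line was the block. On simulated counts with 200 genes changed by a log2 fold change of 2, edgeR recovered 97.5% of them for the si-MALAT1 comparison (18467 genes, 4.88% of calls false) and 93% for H1299 against H460 (18607 genes, 6.06% false). The simulated si-MALAT1 change was of equal size in every line, in genes with a mean of at least 50 reads. These shares therefore do not give the power for changes that differ between lines, as those of many of the 54 genes did.

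The members and lists were chosen with earlier results of these data known. Values in all libraries are given for the 5 genes per line and direction with the largest change among those with a mean of at least 50 reads in the pair, the 5 with the highest control TPM, those past 1.5-fold in the same direction in 3 lines, and those called by either test; the other genes with values, and the 8 genes plotted by pair, were chosen after their values were seen. The alternatives were other pseudocounts, scalings, filters and left-out libraries. Promoter letters were searched in RefSeq sequences, matched by gene ID. Alignment to near copies and overlapping genes was checked on the deposited coordinates and GENCODE transcripts. The result of 1 gene of the receptor and signalling list is not reported here.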

Additional observations from a re-analysis of the deposited data

Results flagged for a closer look

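For the 44 genes with reads in all 6 libraries, the median log2 fold change was highest in H460 and lowest in A549, a difference of 1.04 between the lines, with opposite signs. Single genes were at least 1.5-fold higher in H460 and at least 1.5-fold lower in at least 1 other line, and each of these differences is that of the highest and the lowest line on the log2 scale. The difference was 4.54 for OAS2, which had 104 and 148 reads in H460 and 67 and 4 in A549. It was 2.39 for OASL and 2.14 for IFIT3, which had 414 and 697 reads in H460 and 418 and 186 in A549. MX1 differed by 4.10, BST2 by 5.50 (on 4 to 86 reads in H460 and A549), IFI6 by 3.07, IFI27 by 5.43 and IFI44 by 3.92. None of these differences between lines was tested, because each line and condition had 1 library.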

How the results depend on the processing

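Taking changes from log2(TPM + 1) moved the H460 median from 0.27 to 0.12 and its count of genes higher by 1.5-fold from 10 to 3. The H1299 median moved from -0.54 to -0.36 and its count of higher genes from 3 to 0. Changes from log2(FPKM + 1) gave -0.38 and 0 in H1299 and a median of -0.52 in A549. The added 1 shrinks changes of genes at low levels. The H460 median of all genes moved as well, from 0.018 to -0.066 with TPM, and was 0.004 with FPKM. The part of each in these shifts was not tested. With no filter on zeros, 16 genes were higher by 1.5-fold in H460 and 1, EPSTI1 on 2 reads, in A549, and the A549 median was -0.997, as it was with genes at 0 reads set at their bound, an alternative chosen after seeing the data. The cause was not tested. No median changed sign. The paired test called 5 genes with DESeq2, 0 to 3 with 1 line left out, and 0 without the cell line block (no replicate block), with RLE in edgeR or with no filter; 3 were called without H460. For A549 against H1299 the count ran from 12 to 35 with 1 library left out, for A549 against H460 from 13 to 22 and for H1299 against H460 from 19 to 32. At a limit of 5 TPM, 27 genes were detected in H460. The other 90 medians and counts recomputed under an alternative stayed within the counting error of the reported median or within 1.5 times the reported count. BST2, OAS2, MX2, RSAD2, XAF1 and the chemokines rest on few reads, which limits their changes.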

Other observations

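A further list of 42 interferon-induced genes outside the 54 had its lowest median in A549 and its highest in H460. Of these, 37 had reads in all 6 libraries, where A549 had a median of -0.50, H1299 of -0.04 and H460 of 0.14, and 17, 5 and 2 of them were at least 1.5-fold lower, against 11.4%, 11.4% and 10.3% of all genes, so the counts in H1299 and H460 were near or below the share of all genes. LGALS3BP, a secreted glycoprotein, had changes of -1.24, -0.40 and -0.05 in that order of lines, and IFI16, a sensor of DNA, -2.24, -0.14 and 0.04. The IFI16 changes rest on 84 and 19 reads in A549 and 80 and 66 in H1299. Of the 37 genes, 7 were higher in A549, 17 in H1299 and 23 in H460, with TMEM140 and APOBEC3F higher in every line. EdgeR called 0 of the 37 genes it tested over the 3 lines, and DESeq2 called 3 of 29, a share near the 10.8% of all genes: TAP1 (adjusted p = 0.0375), TRIM14 (0.0106) and NT5C3A (0.00187), all lower. TAP1, the peptide transporter of antigen presentation, had 5346 and 4289 reads in H460, 4906 and 3594 for H1299 and 2303 and 1801 for A549.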
